A study of Sus scrofa with 9 samples.

Results

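This account describes 59 genes for transcription factors and zinc finger proteins in pig granulosa cells treated with sulforaphane or follicle-stimulating hormone (FSH). They are the rows of the deposited table whose description holds the words zinc finger, homeobox, transcription factor, forkhead, nuclear receptor or Kruppel, or whose symbol starts with ZNF, KLF, SOX, FOX or HOX. Of 1081 rows in the table, 64 met these terms, and 5 of them (NR4A1, E2F1, ATF3, MYC and ZFAND2A) were left out by name. The terms themselves use no measured value, but they were set with earlier results of these data known. A level of at least 1 FPKM (a level that counts fragments for a given transcript length and library depth) in at least 3 of 9 libraries was required for testing, and 50 of the 59 genes reached it. The other 9 are given as levels, without a test.

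Transcription factors bind short DNA sequences through a folded domain and raise or lower the transcription of nearby genes. Zinc fingers, in which a zinc ion stabilizes a small fold of protein, homeodomains, forkhead domains, the high-mobility-group box of SOX proteins and basic leucine zippers are such domains. In the ovary, these families set the identity of granulosa cells and carry hormone signals: FSH acts through cyclic AMP, and the cells pass through waves of early-response factors, among them members of the AP-1 complex, as they mature. The SOX and homeobox families are better known for fixing cell identity during development.

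The granulosa cells, which line the follicle around the oocyte, were primary and wild type and came from pig ovary. One group received sulforaphane (a plant isothiocyanate known to switch on the antioxidant regulator NRF2), another FSH (the pituitary hormone that drives follicle growth), and the last was the control, with 3 libraries in each group. The labels give no dose, duration, animal age or number of animals, and do not say whether a group's libraries came from separate cultures or animals, so p-values measure the spread between these libraries, which may be technical. In each library the expression of a whole cell population was measured, so fewer cells of a type and less RNA per cell cannot be told apart.

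The estimated depth was 16.57 to 22.29 (in units of 1e6 fragments) per library, of which the table took in 6.725% to 8.379%. Library sulforaphane 3 stood apart: its median absolute log2 difference from the other 2 of its group over all tested rows was 0.21, against 0.066 to 0.068 in FSH libraries and 0.072 to 0.101 in control libraries. Sulforaphane 1 and 2 had 0.131 and 0.16. Of 11 listed granulosa markers, the 4 in the table (AMHR2, INHBA, FST and HSD17B1) were detected in every library, with summed levels of 56.81 to 72.78 FPKM with sulforaphane, 172.3 to 188.5 with FSH and 66.28 to 70.8 in control. Smooth muscle genes (5 of 7 listed, among them ACTA2) summed to 2314 to 2529, 3058 to 3122 and 7283 to 7581 FPKM in these 3 groups, and surface epithelium keratins (3 of 5) to 39.39 to 46.45, 89.38 to 95.26 and 153.7 to 156.8 FPKM. Stromal fibroblast genes (3 of 7) summed to 44.29 to 51.99, 56.94 to 60.64 and 85.42 to 91.63 FPKM. LHCGR and CYP11A1, from a list of theca genes (2 of 7), summed to 74.86 to 137.5, 530.3 to 611.3 and 138.9 to 165.5 FPKM. LHCGR and PTGFR, from a list of luteal genes (2 of 5), summed to 10.74 to 18.2, 37.37 to 48.18 and 21.74 to 25.19 FPKM. LHCGR is in both lists. Whether granulosa cells themselves gave these sums was not tested, so they are not read as theca or luteal cells. The endothelial gene KDR (1 of 5) lay at 0.87 to 1.67, 0.25 to 0.36 and 0.08 to 0.1 FPKM. No marker in the table was at 0 in any library, and no leukocyte (0 of 5) or erythroid (0 of 3) marker was in it. The part of other cell types in the differences below was not tested.

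Sulforaphane against control gave 26 higher and 24 lower genes among the 50 tested, and FSH against control gave 35 higher and 15 lower (edgeR's quasi-likelihood test, adjusted p under 0.05). ZNF536 and ZNF469, among the 35, reached the minimum level through FSH libraries alone, so their direction was fixed in advance. PRRX1, LOC100517161 and LOC100517731, among the 26 and the 35 higher, reached it through treated libraries alone, which favoured a rise. All 50 passed against control with each treatment, beside 99.6% of all tested rows for sulforaphane and 97.9% for FSH, so passing against control says nothing particular about these genes. The table lacked rows with small differences from control: the 1st percentile over all tested rows, in absolute log2 units, was 0.386 for sulforaphane and 0.370 for FSH, against 0.006 for sulforaphane against FSH. The way rows were selected was not stated. Both control comparisons share the same 3 control libraries.

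Among all tested rows, 34.3% were higher and 65.3% lower with sulforaphane than in control, and 55.3% were higher and 42.7% lower with FSH. The median log2 fold change of the 50 genes was 0.37 for sulforaphane, beside -0.56 over all tested rows, and 0.46 for FSH, beside 0.41. None of the 50 changed by less than 0.347 with sulforaphane, in absolute log2 units. With 26 higher and 24 lower, the median therefore lay between the smallest rises, FOSL2 (0.35) and FOXP1 (0.39), and says little beyond that split. The value for sulforaphane was 0.18 without library sulforaphane 3 and -0.42 over the 20 genes with a mean of at least 5 FPKM, so its sign depends on which genes enter. It was 0.085 with limma on log2(FPKM + 5), and 0.72 and 0.84 under the median-ratio and TMM scalings described next. At 2-fold or more, 3 rose and 6 fell with sulforaphane (9.90% and 24.4% of all tested rows), and 2 rose and 5 fell with FSH (13.3% and 10%), with 34.3% and 23.3% of all rows past 2-fold in either direction. The treated and control libraries did not overlap for 48 of the 50 genes with sulforaphane (96% of all tested rows; the exceptions were LOC100517731 and LOC100517161) and for 49 with FSH (98.7%; the exception was MTF2). Scaling moved these values: median-ratio and TMM factors, which centre on the rows of the table, set the all-row median for sulforaphane against control at -0.20 and -0.09. The 50 genes then gave 26 higher and 13 lower (median-ratio) or 26 higher and 10 lower (TMM), so some of the falls with sulforaphane below depend on the scaling and are marked. FSH against control kept 35 higher and 15 lower under both. Both factors assume that most rows are unchanged, whereas 99.6% and 97.9% of tested rows were called with sulforaphane and FSH against control. They can therefore remove real differences. Calls lost or gained under them show how far a call depends on the scaling, and these rows do not tell which scaling is right.

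**Figure D1:**
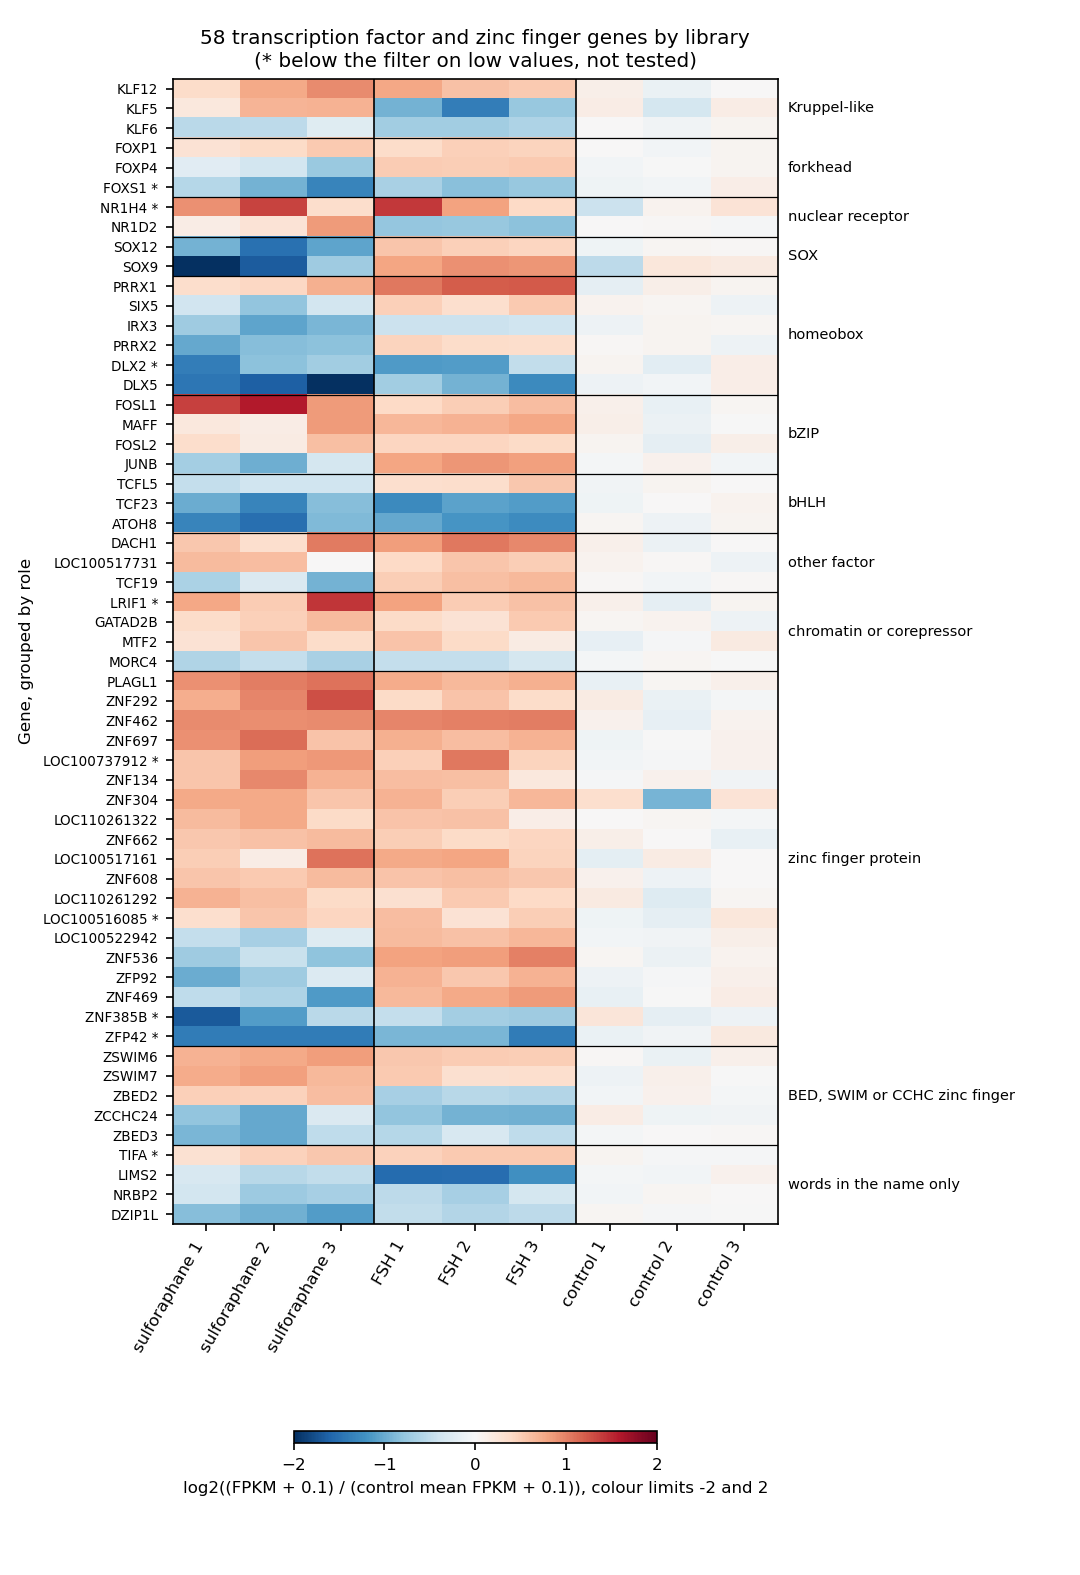
Log2 ratio of each library's FPKM to the control mean for 58 of the genes (rows, grouped by role) in the 9 libraries (columns), after adding 0.1 FPKM to both; red is above and blue below the control mean, and an asterisk marks the 9 genes that were not tested. SOX12, PRRX2 and JUNB are blue in the sulforaphane columns and red in the FSH columns, whereas ATOH8, TCF23 and DLX5 are blue in both.

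**Figure D2:**
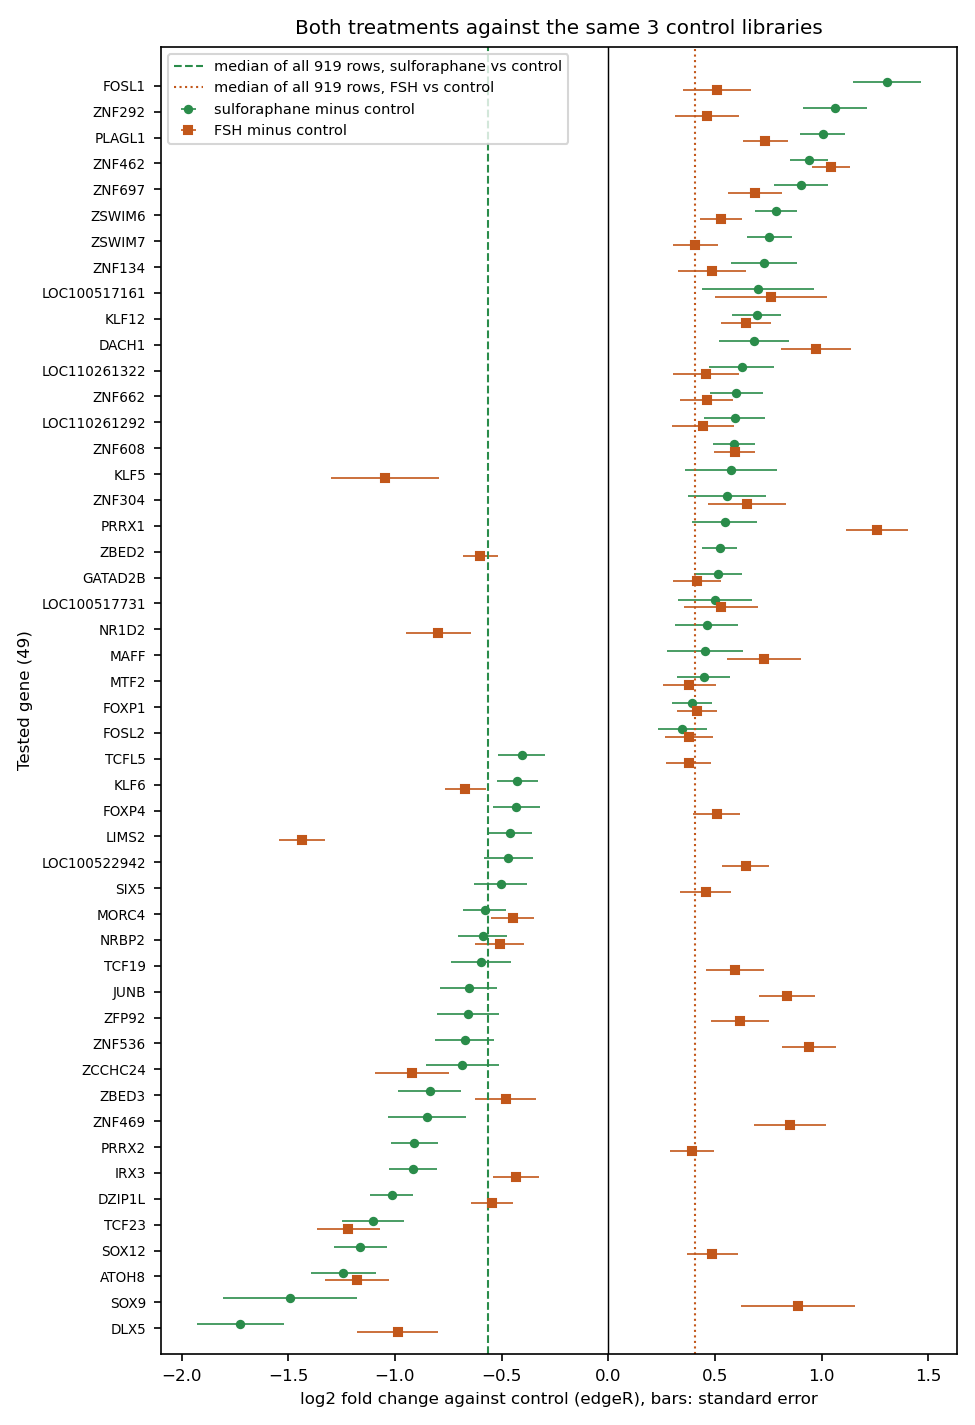
Log2 fold change against control of 49 tested genes, with its standard error, for sulforaphane (circles) and for FSH (squares), ordered by the sulforaphane value; the dashed and dotted lines give the median over all tested rows in each comparison. All 15 tested zinc finger proteins lie above 0 with FSH, of which ZNF536 and ZNF469 had to, since they reached the minimum level through FSH alone, and 4 lie below 0 with sulforaphane. LOC100517161 reached that level through treated libraries alone.

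Both SOX genes were lower with sulforaphane (65.3% of all tested rows were) and higher with FSH (55.3% were). SOX9 (NCBI gene ID 396840, Sscrofa11.1 chr12:8642154-8647315), which drives Sertoli cell and cartilage development, stood at 0.38, 0.54 and 1.15 FPKM with sulforaphane, 3.41, 3.75 and 3.64 FPKM with FSH, and 1.32, 2.29 and 2.2 FPKM in control. Neither treatment overlapped the control range or the other. SOX9 was 2.81-fold lower with sulforaphane than in control (log2 fold change -1.49 ± 0.32 SE, adjusted p = 0.000744) and 1.85-fold higher with FSH (0.89 ± 0.27, adjusted p = 0.00711). Set against FSH directly, sulforaphane was 5.21-fold lower (-2.38 ± 0.30, adjusted p = 1.57e-05), the widest gap between the treatments among the 50 genes. Library sulforaphane 3 was the highest of its group here, and without it the fall against control was -2.07. SOX12 (gene ID 100520156, chr17:34855149-34858434), one of the SoxC factors of embryonic progenitor cells, stood at 7.64, 5.21 and 7.06 FPKM with sulforaphane, 21.81, 20.69 and 19.97 FPKM with FSH, and 14.05, 15.33 and 15.18 FPKM in control. Its 3 groups were fully apart. It was 2.24-fold lower with sulforaphane (-1.16 ± 0.13, adjusted p = 4.17e-06), 1.40-fold higher with FSH (0.49 ± 0.12, adjusted p = 0.00225) and 3.14-fold lower with sulforaphane than with FSH (-1.65 ± 0.13, adjusted p = 1.53e-07).

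**Figure D3:**
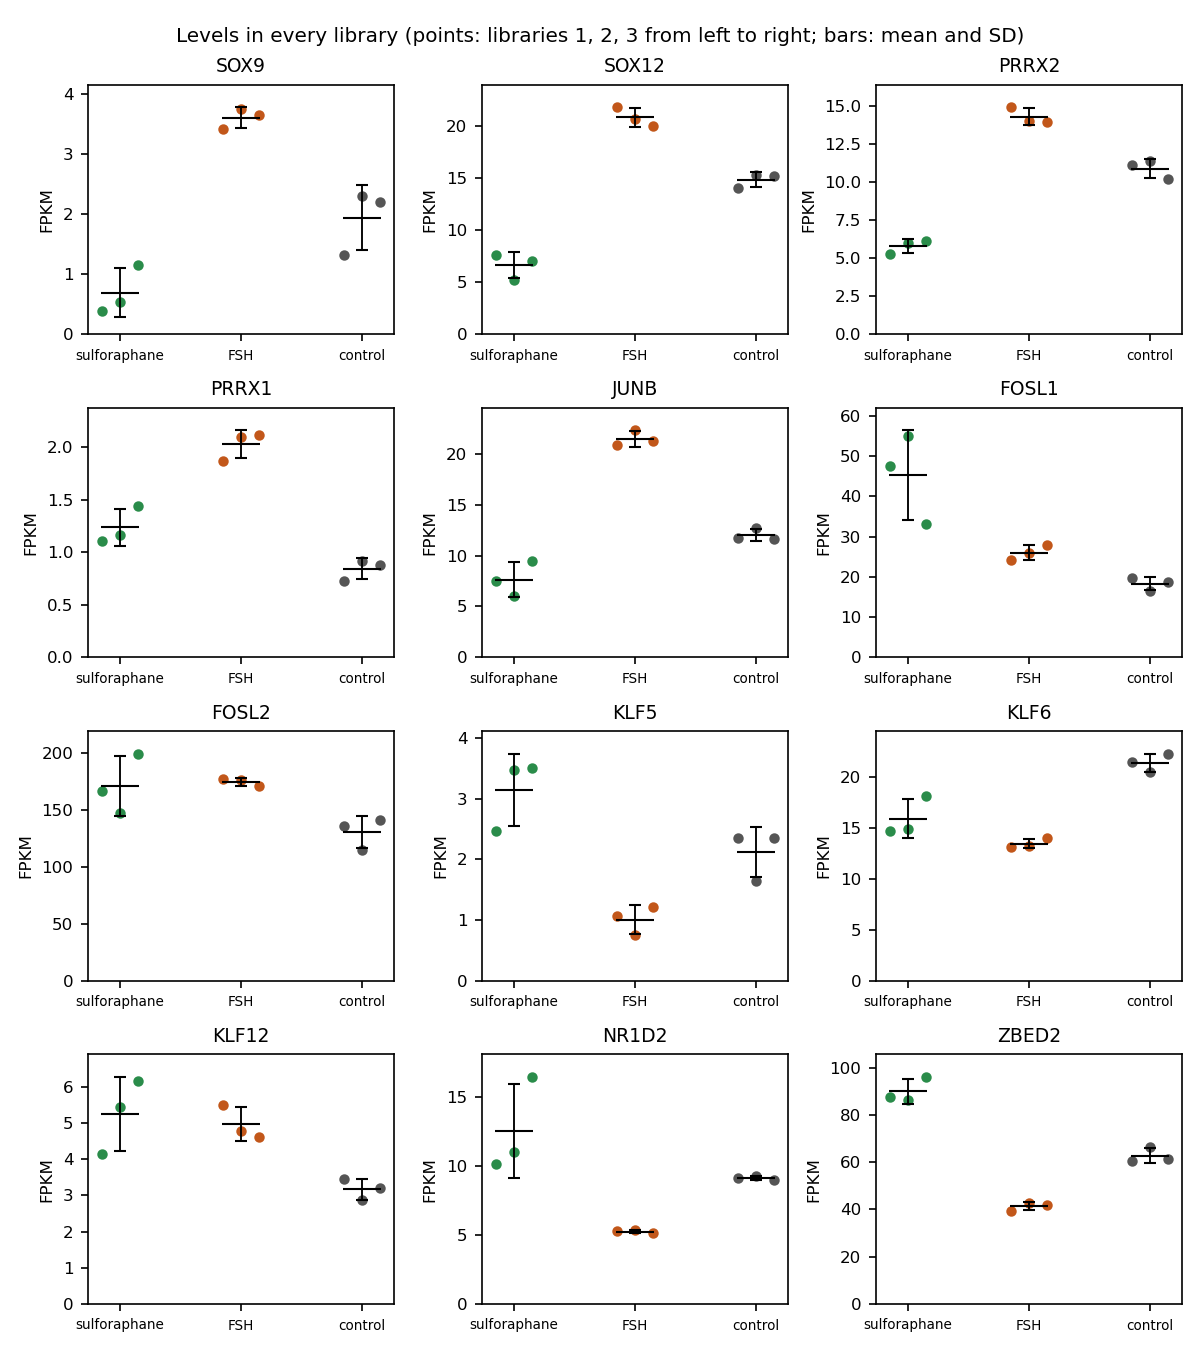
FPKM of selected genes in each library (points), with the mean and SD of each group of 3, for sulforaphane, FSH and control from left to right. SOX9 and SOX12 lie lowest with sulforaphane and highest with FSH.

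The 6 tested homeobox genes did not all move one way. With sulforaphane 5 fell and 1 rose (65.3% and 34.3% of all tested rows), and with FSH 3 fell and 3 rose (42.7% and 55.3%). The related limb mesenchyme factors PRRX1 and PRRX2 moved apart under sulforaphane. PRRX1 (gene ID 100738910, chr4:80427682-80502689) stood at 1.11, 1.16 and 1.44 FPKM with sulforaphane, 1.87, 2.09 and 2.11 FPKM with FSH, and 0.73, 0.92 and 0.88 FPKM in control, and all 3 groups were apart. It was 1.46-fold higher with sulforaphane (0.55 ± 0.15, adjusted p = 0.00426) and 2.39-fold higher with FSH (1.26 ± 0.15, adjusted p = 1.06e-05), the largest rise with FSH among the 50 genes. PRRX1 reached the minimum level through treated libraries alone, so a rise was favoured in advance and these p-values are not free of that selection. PRRX2 (gene ID 100521241, chr1:269853134-269902808) stood at 5.29, 5.99 and 6.08 FPKM with sulforaphane, 14.89, 13.97 and 13.92 FPKM with FSH, and 11.1, 11.33 and 10.16 FPKM in control. It was 1.88-fold lower with sulforaphane (-0.91 ± 0.11, adjusted p = 9.82e-06) and 1.31-fold higher with FSH (0.39 ± 0.10, adjusted p = 0.00325). Sulforaphane set against FSH was lower for both, by 0.71 ± 0.14 on the log2 scale for PRRX1 (adjusted p = 0.000666) and by 1.3 ± 0.11 for PRRX2 (adjusted p = 3.21e-07).

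DLX5 and IRX3 were lower than control with either treatment. DLX5 (gene ID 100286863, chr9:76639915-76643689), a factor of bone and limb development, stood at 2.23, 1.95 and 1.48 FPKM with sulforaphane, 3.81, 3.19 and 2.53 FPKM with FSH, and 5.84, 6.03 and 6.90 FPKM in control. It was 3.30-fold lower with sulforaphane (-1.72 ± 0.21, adjusted p = 9.49e-06), the deepest fall among the 50 genes, and 1.98-fold lower with FSH (-0.99 ± 0.19, adjusted p = 0.000488). IRX3 (gene ID 100518611, chr6:31044919-31049067), which takes part in follicle development in the mouse, stood at 4.65, 3.64 and 4.02 FPKM with sulforaphane, 5.68, 5.67 and 5.75 FPKM with FSH, and 7.13, 7.94 and 7.87 FPKM in control, with no overlap. It fell 1.89-fold with sulforaphane (-0.92 ± 0.11, adjusted p = 1.1e-05) and 1.35-fold with FSH (-0.43 ± 0.11, adjusted p = 0.00259), in a row whose reads had been divided between loci. DLX5 and IRX3 were lower with sulforaphane than with FSH (adjusted p = 0.0123 and 0.00224), but neither call held under median-ratio scaling (-0.36 and -0.11, adjusted p = 0.179 and 0.387) or TMM scaling (-0.43 and -0.18, adjusted p = 0.11 and 0.146). The DLX5 call was also lost without library FSH 1, at -0.58. SIX5 averaged 6.06 ± 0.98 FPKM with sulforaphane, 11.8 ± 0.85 FPKM with FSH and 8.58 ± 0.56 FPKM in control (SD, n = 3 each), and its fall with sulforaphane (-0.50) did not pass under either scaling.

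The 4 leucine-zipper genes rose together with FSH (55.3% of all tested rows rose). With sulforaphane JUNB fell and 3 rose (65.3% and 34.3% of all tested rows). JUNB, FOSL1 and FOSL2 are subunits of AP-1, in which a JUN protein pairs with a FOS or FOS-like one. JUNB (gene ID 100523358, chr2:66214086-66219435) stood at 7.46, 6.03 and 9.42 FPKM with sulforaphane, 20.82, 22.28 and 21.20 FPKM with FSH, and 11.72, 12.70 and 11.62 FPKM in control. It was 1.78-fold higher with FSH (0.84 ± 0.13, adjusted p = 0.000114), 1.58-fold lower with sulforaphane (-0.66 ± 0.13, adjusted p = 0.000562) and 2.81-fold lower with sulforaphane than with FSH (-1.49 ± 0.13, adjusted p = 6.67e-07). The fall against control did not pass under TMM scaling (-0.19), whereas the gap between the treatments did (-1.20). FOSL1 (gene ID 100525205, chr2:6430158-6436173) stood at 47.55, 55.03 and 33.18 FPKM with sulforaphane, 24.15, 25.94 and 28.00 FPKM with FSH, and 19.75, 16.47 and 18.73 FPKM in control. It had the largest rise with sulforaphane among the 50 genes (2.47-fold, 1.31 ± 0.16, adjusted p = 1.05e-05), against a 1.42-fold rise with FSH (0.51 ± 0.16, adjusted p = 0.00847), and was 1.74-fold higher with sulforaphane than with FSH (0.80 ± 0.16, adjusted p = 0.000576). Library sulforaphane 3 was the lowest of its group but still above every FSH and control library.

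FOSL2 (gene ID 100623777, chr3:110820403-110842903) was the most abundant of the 59 genes in control. It stood at 166.34, 146.70 and 199.05 FPKM with sulforaphane, 176.50, 175.84 and 170.62 FPKM with FSH, and 135.29, 114.84 and 141.32 FPKM in control. The treated ranges overlapped each other but not control. It was 1.27-fold higher with sulforaphane (0.35 ± 0.11, adjusted p = 0.0104) and 1.3-fold higher with FSH (0.38 ± 0.11, adjusted p = 0.00712). Without library sulforaphane 3 the rise with sulforaphane was 0.18. The difference between the treatments did not pass relative to library depth (-0.03) and had the other sign under both scalings (0.34 and 0.26). MAFF, a small MAF protein that pairs with NRF2 on antioxidant response elements, averaged 5.77 ± 1.70 FPKM with sulforaphane, 6.98 ± 0.28 FPKM with FSH and 4.22 ± 0.37 FPKM in control (SD, n = 3 each). Its rise with FSH (0.73 ± 0.17, adjusted p = 0.00186) was the steadier of the 2, since the rise with sulforaphane (0.45 ± 0.18, adjusted p = 0.0242) did not pass without sulforaphane 3, where it was 0.19 (adjusted p = 0.127), nor without control 2 or control 3.

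KLF5 and NR1D2 were higher with sulforaphane and lower with FSH than in control. KLF5 (gene ID 100038005, chr11:45370009-45386673), a Kruppel-like factor of proliferating epithelium and smooth muscle, stood at 2.46, 3.47 and 3.51 FPKM with sulforaphane, 1.06, 0.75 and 1.21 FPKM with FSH, and 2.36, 1.65 and 2.36 FPKM in control. Its sulforaphane libraries began just above the highest control library. KLF5 was 3.08-fold higher with sulforaphane than with FSH (1.62 ± 0.24, adjusted p = 5.84e-05) and 2.07-fold lower with FSH than in control (-1.05 ± 0.25, adjusted p = 0.00196). The rise against control with sulforaphane (0.57 ± 0.22, adjusted p = 0.0214) was lost without sulforaphane 2, where it was 0.50, or without control 2, where it was 0.42 (adjusted p = 0.0975, the highest of those with 1 library left out). NR1D2 (gene ID 100621076, chr13:10756954-10791219) encodes REV-ERB beta, a haem-binding nuclear receptor that represses transcription in the circadian clock. It stood at 10.14, 11.07 and 16.49 FPKM with sulforaphane, 5.28, 5.37 and 5.12 FPKM with FSH, and 9.14, 9.26 and 9.02 FPKM in control, with no overlap between groups. It was 2.39-fold higher with sulforaphane than with FSH (1.26 ± 0.15, adjusted p = 9.58e-06), 1.38-fold higher with sulforaphane than in control (0.46 ± 0.15, adjusted p = 0.00933) and 1.74-fold lower with FSH than in control (-0.80 ± 0.15, adjusted p = 0.000452). Without sulforaphane 3 the rise against control was 0.22.

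KLF12 and FOXP1 rose with both treatments, KLF6 fell with FSH, and FOXP4 was lower with sulforaphane than with FSH. KLF6 (gene ID 100174961, chr10:66488445-66497830), induced in many tissues by injury, stood at 14.73, 14.95 and 18.15 FPKM with sulforaphane, 13.15, 13.26 and 14.0 FPKM with FSH, and 21.56, 20.49 and 22.26 FPKM in control. Both treatments lay below control, by 0.67 ± 0.10 on the log2 scale for FSH (adjusted p = 6.04e-05) and by 0.43 ± 0.10 for sulforaphane (adjusted p = 0.00114). The value for sulforaphane depended on the scaling, at -0.07 under median-ratio and 0.04 under TMM, neither of which passed. KLF12, a repressor of the AP-2 alpha gene and the neighbour of KLF5 on chromosome 11, averaged 5.24 ± 1.03 FPKM with sulforaphane, 4.97 ± 0.47 FPKM with FSH and 3.17 ± 0.29 FPKM in control (SD, n = 3 each), and rose with both (adjusted p = 0.000126 and 0.000297). FOXP1 and FOXP4 encode forkhead repressors that pair with each other. FOXP1 averaged 23.7 ± 1.9, 24.1 ± 0.95 and 17.9 ± 0.75 FPKM in sulforaphane, FSH and control libraries and rose with both treatments (adjusted p = 0.00163 and 0.00129). FOXP4 averaged 75.3 ± 13.2, 144 ± 1.6 and 102 ± 4.2 FPKM. It was 1.92-fold lower with sulforaphane than with FSH (-0.94 ± 0.11, adjusted p = 7.7e-06) and 1.42-fold higher with FSH than in control (adjusted p = 0.00102), while its fall with sulforaphane against control (-0.43 ± 0.11) was 0.06 under TMM scaling and did not pass there.

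Of 3 basic helix-loop-helix genes, ATOH8 and TCF23 fell with both treatments (65.3% of all tested rows fell with sulforaphane and 42.7% with FSH). ATOH8 (gene ID 100523367, chr3:58964541-59001620), a differentiation factor of the atonal family, stood at 2.42, 2.11 and 3.30 FPKM with sulforaphane, 2.98, 2.67 and 2.53 FPKM with FSH, and 6.33, 5.74 and 6.44 FPKM in control. It was 2.36-fold lower with sulforaphane (-1.24 ± 0.15, adjusted p = 1.27e-05) and 2.26-fold lower with FSH (-1.18 ± 0.15, adjusted p = 2.61e-05), and the treatments overlapped. TCF23 (gene ID 100522370, chr3:111976848-111983879), a factor required for decidualization in the mouse uterus, stood at 1.19, 0.92 and 1.32 FPKM with sulforaphane, 0.96, 1.12 and 1.08 FPKM with FSH, and 2.32, 2.46 and 2.59 FPKM in control. It was 2.15-fold lower with sulforaphane (-1.10 ± 0.15, adjusted p = 2.19e-05) and 2.33-fold lower with FSH (-1.22 ± 0.15, adjusted p = 1.4e-05). The direct difference between the treatments did not pass for ATOH8 (-0.06 ± 0.16, adjusted p = 0.781) or TCF23 (0.12 ± 0.16, adjusted p = 0.581), although for TCF23 it passed under median-ratio (0.49) and TMM scaling (0.41). TCFL5 averaged 3.62 ± 0.10 FPKM with sulforaphane, 6.54 ± 0.53 FPKM with FSH and 4.89 ± 0.20 FPKM in control (SD, n = 3 each), in a row with divided reads. It was 1.72-fold lower with sulforaphane than with FSH (adjusted p = 3.34e-05), while its fall against control (-0.41) was 0.07 under TMM scaling.

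Among other factors, DACH1 (gene ID 100156238, chr11:43765386-44187766), a corepressor that acts in eye and limb development, rose with both. It stood at 4.75, 4.11 and 6.82 FPKM with sulforaphane, 5.85, 6.85 and 6.43 FPKM with FSH, and 3.5, 3.0 and 3.25 FPKM in control. It was 1.61-fold higher with sulforaphane (0.68 ± 0.16, adjusted p = 0.00169) and 1.96-fold higher with FSH (0.97 ± 0.16, adjusted p = 0.000184). Sulforaphane 3 lay within the FSH range and the other 2 sulforaphane libraries below it, and without sulforaphane 3 sulforaphane was lower than FSH (-0.53, adjusted p = 4.21e-05). TCF19, which carries a PHD finger and is linked to proliferation, averaged 6.23 ± 1.44 FPKM with sulforaphane, 14.3 ± 0.78 FPKM with FSH and 9.48 ± 0.28 FPKM in control (SD, n = 3 each). It was 2.28-fold lower with sulforaphane than with FSH (-1.19 ± 0.14, adjusted p = 8.23e-06) and 1.51-fold higher with FSH than in control (adjusted p = 0.00152). Its fall with sulforaphane against control (-0.60 ± 0.14) did not pass under either scaling. LOC100517731, in a row with divided reads, had means of 1.15, 1.17 and 0.81 FPKM in sulforaphane, FSH and control libraries, and its call with sulforaphane was lost without sulforaphane 1, without sulforaphane 2 or without control 3. It reached the minimum level through treated libraries alone, so a rise was favoured in advance.

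The 3 tested chromatin genes changed by small amounts against control, and none passed between the treatments relative to library depth. MTF2 is a subunit that guides the PRC2 histone methylase, and GATAD2B belongs to the NuRD remodelling complex. MTF2 averaged 6.98 ± 0.70, 6.83 ± 0.98 and 5.23 ± 0.64 FPKM in sulforaphane, FSH and control libraries, and GATAD2B 3.77 ± 0.36, 3.52 ± 0.30 and 2.64 ± 0.17 FPKM. Both rose with each treatment (adjusted p of 0.000904 to 0.0114), though the FSH and control libraries of MTF2 overlapped and its call with FSH was lost without FSH 1. Under median-ratio and TMM scaling both were higher with sulforaphane than with FSH (GATAD2B 0.47 and 0.39, adjusted p = 0.000949 and 0.0038; MTF2 0.45 and 0.37, adjusted p = 0.00517 and 0.0153). MORC4 averaged 3.48 ± 0.24, 3.82 ± 0.20 and 5.22 ± 0.15 FPKM and was lower with sulforaphane (-0.58, adjusted p = 0.000176; not passed under either scaling) and with FSH (-0.45, adjusted p = 0.00124).

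All 15 tested zinc finger proteins rose with FSH (55.3% of all tested rows did), while 11 rose and 4 fell with sulforaphane (34.3% and 65.3% of all rows). Of these, ZNF536 and ZNF469 reached the minimum level through FSH libraries alone, so they had to be higher there. LOC100517161 reached it through treated libraries alone, FSH libraries among them, so its rise was favoured in advance. PLAGL1 (gene ID 733596, chr1:21299830-21371070), an inhibitor of cell growth that is imprinted in human and mouse, stood at 6.85, 7.43 and 7.78 FPKM with sulforaphane, 6.08, 5.68 and 5.93 FPKM with FSH, and 3.22, 3.71 and 3.86 FPKM in control. It was 2.01-fold higher with sulforaphane (1.0 ± 0.11, adjusted p = 3.64e-06) and 1.67-fold higher with FSH (0.74 ± 0.11, adjusted p = 6.21e-05). ZNF292 (gene ID 100517252, chr1:55615250-55713103), a large protein with many zinc fingers, stood at 2.02, 2.41 and 3.03 FPKM with sulforaphane, 1.56, 1.80 and 1.54 FPKM with FSH, and 1.33, 1.06 and 1.14 FPKM in control. Its groups were apart, and it was 2.09-fold higher with sulforaphane (1.06 ± 0.15, adjusted p = 3.64e-05) and 1.38-fold higher with FSH (0.46 ± 0.15, adjusted p = 0.0115; 0.0507 without control 2). Relative to library depth, PLAGL1 and ZNF292 were the 2 zinc finger proteins that passed as higher with sulforaphane than with FSH, by 1.20-fold (0.27 ± 0.10, adjusted p = 0.0414) and 1.52-fold (0.60 ± 0.15, adjusted p = 0.0033). Under median-ratio scaling ZNF697, ZNF662, ZNF462, ZNF134, ZNF608, LOC110261292 and LOC110261322 passed as well, and all of these but ZNF462 under TMM. The call for PLAGL1 was lost without sulforaphane 2 or without any of the FSH libraries, and with the replicate number as a block (adjusted p = 0.0504).

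ZNF462 and ZNF697 rose with either treatment. ZNF462 (gene ID 100158126, chr1:248029136-248181792), known as a vertebrate chromatin regulator, stood at 4.02, 3.96 and 4.0 FPKM with sulforaphane, 4.13, 4.21 and 4.25 FPKM with FSH, and 2.16, 1.81 and 2.15 FPKM in control. Every treated library lay well above every control library. It was 1.92-fold higher with sulforaphane (0.94 ± 0.09, adjusted p = 1.46e-06) and 2.06-fold higher with FSH (1.05 ± 0.09, adjusted p = 7.49e-07). The treatments did not overlap, yet the difference between them (-0.11 ± 0.09, adjusted p = 0.341) did not pass and had the other sign under median-ratio scaling (0.27, adjusted p = 0.017) and TMM scaling (0.195, adjusted p = 0.0719). ZNF697 (gene ID 100154558, chr4:101520252-101552266) stood at 7.23, 8.33 and 5.65 FPKM with sulforaphane, 6.22, 5.86 and 6.19 FPKM with FSH, and 3.56, 3.76 and 4.02 FPKM in control. It was 1.87-fold higher with sulforaphane (0.90 ± 0.13, adjusted p = 3.37e-05) and 1.61-fold higher with FSH (0.69 ± 0.13, adjusted p = 0.000352), and without sulforaphane 3 it was higher with sulforaphane than with FSH (0.35, adjusted p = 0.000514). ZNF608 and ZNF662 also rose with both treatments, with log2 fold changes between 0.46 and 0.60 and adjusted p between 0.000123 and 0.0041.

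The 4 zinc finger proteins lower with sulforaphane and higher with FSH were ZNF536, ZNF469, ZFP92 and LOC100522942. ZNF536 (gene ID 100738519, chr6:40291360-40773616), a repressor of neuronal differentiation genes, stood at 0.40, 0.50 and 0.37 FPKM with sulforaphane, 1.33, 1.36 and 1.54 FPKM with FSH, and 0.74, 0.66 and 0.76 FPKM in control. It was 1.92-fold higher with FSH than in control (0.94 ± 0.13, adjusted p = 3.36e-05) and 3.06-fold lower with sulforaphane than with FSH (-1.61 ± 0.13, adjusted p = 2.96e-07). ZNF469 (gene ID 110260887, chr6:1161514-1208406), whose loss causes brittle cornea in humans, stood at 0.47, 0.43 and 0.27 FPKM with sulforaphane, 1.17, 1.28 and 1.36 FPKM with FSH, and 0.63, 0.71 and 0.80 FPKM in control. It was 1.81-fold higher with FSH (0.85 ± 0.17, adjusted p = 0.000632) and 3.25-fold lower with sulforaphane than with FSH (-1.70 ± 0.18, adjusted p = 3.11e-06). The minimum level had selected these 2 genes for a high value with FSH, so their p-values in comparisons with FSH do not count as tests. ZFP92 averaged 1.3 ± 0.36 FPKM with sulforaphane, 3.31 ± 0.21 FPKM with FSH and 2.07 ± 0.16 FPKM in control, and LOC100522942 averaged 2.66 ± 0.40, 5.75 ± 0.14 and 3.68 ± 0.27 FPKM (SD, n = 3 each). Both were more than 2-fold lower with sulforaphane than with FSH (adjusted p = 5.11e-06 and 2.35e-06). The falls of all 4 with sulforaphane against control, between -0.85 for ZNF469 and -0.47 for LOC100522942, did not pass under TMM scaling, where LOC100522942 was at 0.00.

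All tested zinc finger genes of a stretch of chromosome 6 were higher than control with both treatments (34.3% of all tested rows with sulforaphane and 55.3% with FSH). Of the 19 zinc finger proteins, 7 lay between positions 57707240 and 62586673 of chromosome 6 in Sscrofa11.1, and no other row of the table lay in this stretch of 4.88 Mb. They formed separate groups, with 2 at 57707240 to 58202766 and 5 at 61740677 to 62586673. The limits were set after the values had been seen. RefSeq annotates 177 protein-coding genes there, of which 23 have a symbol starting with ZNF or ZFP. LOC110261292, LOC100517161, ZNF304, LOC110261322 and ZNF134 were tested, and all 5 were higher with sulforaphane (log2 fold changes of 0.56 to 0.73, median 0.62) and with FSH (0.44 to 0.76, median 0.49). LOC100517161 reached the minimum level through treated libraries alone, so its rises were favoured in advance. None of the 5 passed between the treatments relative to library depth (-0.09 to 0.24). Under median-ratio and TMM scaling ZNF134 (0.62 and 0.55), LOC110261292 (0.53 and 0.45) and LOC110261322 (0.55 and 0.48) passed as higher with sulforaphane than with FSH. The 10 tested zinc finger proteins elsewhere ranged more widely, between -0.85 and 1.06 with sulforaphane and between 0.46 and 1.05 with FSH. With sulforaphane 6 of these rose and 4 fell. All 10 rose with FSH, so the rise with FSH was not particular to the stretch.

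ZNF134 had the largest rise of the stretch with sulforaphane. It stood at 4.20, 5.62 and 4.62 FPKM with sulforaphane, 4.40, 4.35 and 3.30 FPKM with FSH, and 2.79, 3.01 and 2.69 FPKM in control, a 1.66-fold rise with sulforaphane (0.73 ± 0.16, adjusted p = 0.000816) and a 1.40-fold rise with FSH (0.49 ± 0.16, adjusted p = 0.0108). LOC100517161 was the weakest case, at 0.84, 0.64 and 1.31 FPKM with sulforaphane, 1.03, 1.05 and 0.81 FPKM with FSH, and 0.48, 0.65 and 0.57 FPKM in control. Its sulforaphane and control libraries overlapped, and the call was lost without sulforaphane 3 (0.37, adjusted p = 0.146) or without control 1, and its call with FSH was also lost without control 1. ZNF304, in a row with divided reads, was at 0.69 FPKM in control 2, against 1.81 and 1.73 FPKM in the other 2 control libraries. LOC110261292 and LOC110261322 passed with FSH at adjusted p = 0.0115 and 0.013, calls that were lost without control 2 for LOC110261292 and without FSH 1 or FSH 2 for LOC110261322. Zinc finger genes of such a stretch can be near-identical, and of these 7 only the ZNF304 row showed divided reads. Whether reads in the other rows were assigned to the right gene was not tested, so these 7 values are uncertain as separate measurements.

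**Figure D4:**
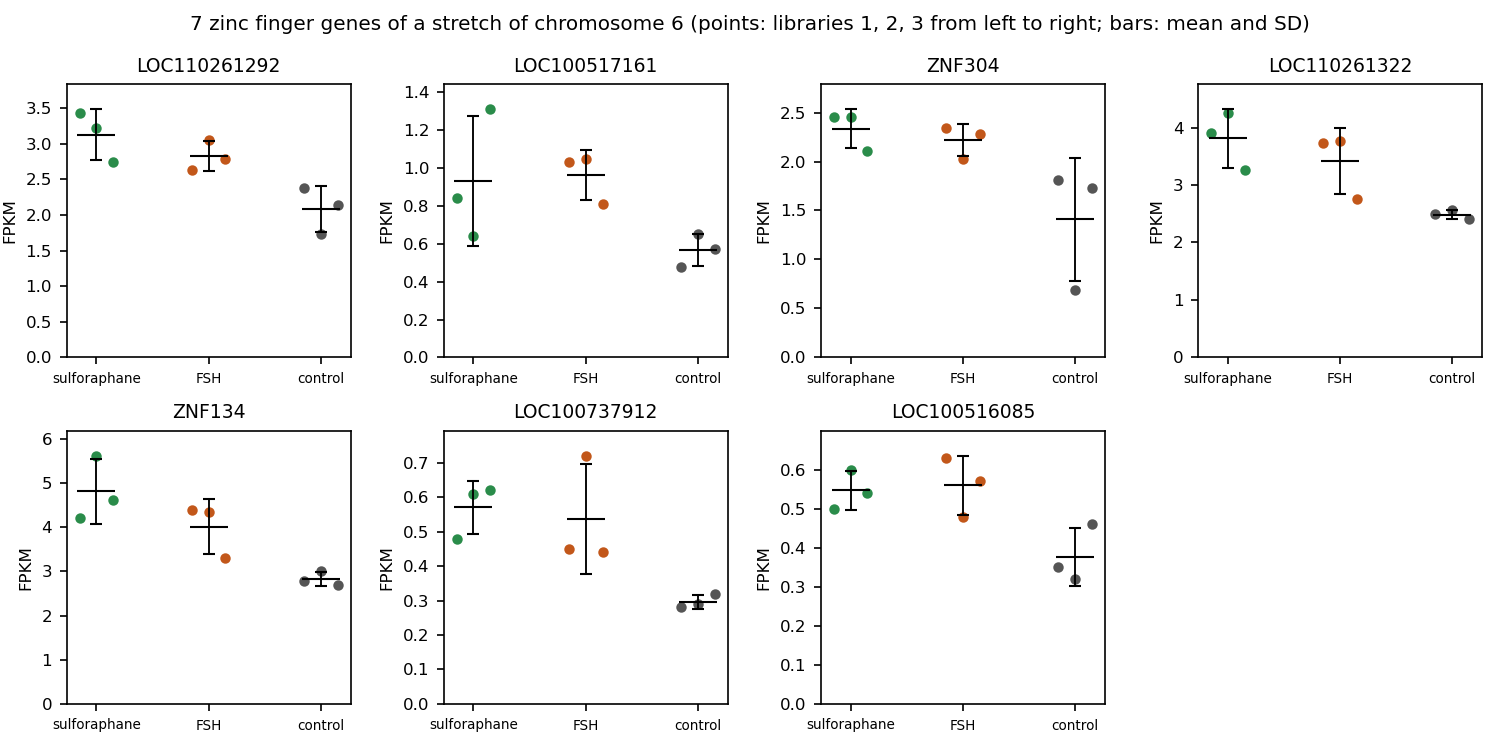
FPKM in each library (points) with the mean and SD of each group of 3 for the 7 zinc finger genes of the chromosome 6 stretch, sulforaphane, FSH and control from left to right. Treated means lie above the control mean in each panel, and sulforaphane and FSH points overlap.

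The genes with BED, SWIM or CCHC zinc fingers, which are other kinds of zinc-binding fold, included the clearest case of opposite change at high level. ZBED2 (gene ID 100517972, chr13:148156510-148158769), a repressor derived from a domesticated transposase, stood at 87.74, 86.26 and 96.12 FPKM with sulforaphane, 39.50, 42.72 and 41.98 FPKM with FSH, and 60.61, 66.45 and 61.17 FPKM in control. No library crossed into another group's range. It was 1.43-fold higher with sulforaphane than in control (0.52 ± 0.08, adjusted p = 8.61e-05), 1.52-fold lower with FSH (-0.60 ± 0.08, adjusted p = 4.35e-05) and 2.17-fold higher with sulforaphane than with FSH (1.12 ± 0.08, adjusted p = 1.26e-07). ZSWIM6 (gene ID 100620165, chr16:40105499-40305379) stood at 4.85, 5.04 and 5.36 FPKM with sulforaphane, 4.33, 4.26 and 4.19 FPKM with FSH, and 3.01, 2.68 and 3.17 FPKM in control. It rose 1.72-fold with sulforaphane (0.79 ± 0.10, adjusted p = 1.32e-05) and 1.44-fold with FSH (0.53 ± 0.10, adjusted p = 0.000367). ZSWIM7, a factor of homologous recombination whose row had divided reads, averaged 5.49 ± 0.31, 4.32 ± 0.35 and 3.25 ± 0.23 FPKM in sulforaphane, FSH and control libraries and rose with both (adjusted p = 3.02e-05 and 0.00295). ZBED3 (1.39 ± 0.29, 1.77 ± 0.17 and 2.48 ± 0.06 FPKM) and ZCCHC24 (2.69 ± 0.76, 2.28 ± 0.17 and 4.33 ± 0.40 FPKM) were lower with either treatment, with adjusted p between 0.000197 and 0.007. The fall of ZCCHC24 with sulforaphane (-0.69) did not pass under median-ratio or TMM scaling.

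LIMS2, DZIP1L and NRBP2 met the terms through words in their names and are not transcription factors. LIMS2 (gene ID 100517009, chr15:59672508-59709380) encodes PINCH2, a focal adhesion protein with LIM domains. It stood at 23.88, 20.27 and 21.01 FPKM with sulforaphane, 10.18, 10.23 and 12.59 FPKM with FSH, and 29.10, 28.65 and 31.47 FPKM in control. It was 2.70-fold lower with FSH than in control (-1.44 ± 0.11, adjusted p = 2.52e-07) and 1.97-fold higher with sulforaphane than with FSH (0.98 ± 0.11, adjusted p = 4.13e-06). Its lower level with sulforaphane than in control (-0.46 ± 0.10, adjusted p = 0.00114) did not pass under median-ratio (-0.10) or TMM scaling (0.02). DZIP1L (gene ID 106505696, chr13:78861007-78916633), a protein of the ciliary transition zone, stood at 2.49, 2.32 and 2.06 FPKM with sulforaphane, 3.23, 3.03 and 3.16 FPKM with FSH, and 4.73, 4.49 and 4.55 FPKM in control, and was 2.02-fold lower with sulforaphane (-1.02 ± 0.10, adjusted p = 2.23e-06) and 1.46-fold lower with FSH (-0.55 ± 0.10, adjusted p = 0.000303). NRBP2, a pseudokinase, averaged 7.66 ± 1.07, 8.07 ± 0.91 and 11.5 ± 0.39 FPKM in sulforaphane, FSH and control libraries and was lower with FSH (-0.51, adjusted p = 0.00133). With sulforaphane it was also lower (-0.59, adjusted p = 0.00043), a call that ended under median-ratio (-0.23) and TMM scaling (-0.11).

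The 9 genes below the minimum level were NR1H4, LRIF1, TIFA, LOC100516085, DLX2, ZNF385B, ZFP42, LOC100737912 and FOXS1. None was tested, and the highest held 159 counts in any library. FOXS1, a forkhead gene, had 0.30 to 0.57 FPKM with sulforaphane, 0.46 to 0.54 FPKM with FSH and 0.84 to 1.0 FPKM in control. DLX2 had 0.37 to 0.66, 0.46 to 0.77 and 0.96 to 1.25 FPKM in these groups, and ZNF385B 0.13 to 0.41, 0.35 to 0.43 and 0.55 to 0.78 FPKM. ZFP42, the pluripotency marker REX1, was listed at 0 in all 3 sulforaphane libraries and in 1 FSH library, with at most 6 counts in any library. NR1H4, the bile acid receptor FXR, had 0.28 to 0.66, 0.29 to 0.69 and 0.12 to 0.26 FPKM, and LRIF1, a nuclear receptor and heterochromatin partner, had 0.57 to 1.17, 0.57 to 0.73 and 0.32 to 0.41 FPKM. TIFA, an adaptor that binds TRAF6 and not a transcription factor, had 0.58 to 0.70, 0.66 to 0.69 and 0.44 to 0.47 FPKM. The untested genes of the chromosome 6 stretch, LOC100516085 and LOC100737912, had control levels of 0.32 to 0.46 and 0.28 to 0.32 FPKM and treated levels of 0.48 to 0.63 and 0.44 to 0.72 FPKM.

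Set against each other, the treatments differed for 27 of the 50 genes, 11 higher and 16 lower with sulforaphane than with FSH, beside 55.7% of all tested rows (12.9% higher, 42.8% lower). At 2-fold or more there were 3 higher (KLF5, NR1D2 and ZBED2) and 9 lower, beside 5.01% and 27.6% of all tested rows, or 32.6% in either direction. ZNF536 and ZNF469, among the 9 and the 16 lower, reached the minimum level through FSH libraries alone, so their direction was fixed in advance. The sulforaphane and FSH libraries did not overlap for 29 of the 50, beside 59.4% of all tested rows. The median log2 difference was -0.05, beside -0.18 over all rows. By role, 5 of 6 homeobox genes and both SOX genes were lower with sulforaphane, and 3 of 5 BED, SWIM or CCHC genes and 2 of 3 Kruppel-like genes were higher. Of the other roles, zinc finger proteins had 2 higher and 4 lower of 15, with ZNF536 and ZNF469 among the lower. Leucine-zipper genes had 1 higher and 1 lower of 4, and helix-loop-helix genes 1 lower of 3. The split depended on the scaling: 26 were higher and 13 lower under median-ratio factors and 24 higher and 13 lower under TMM, with all-row medians of 0.19 and 0.12. The calls lost there were DLX5, IRX3 and DZIP1L. Under median-ratio factors 15 calls were gained, all higher with sulforaphane: ZNF697, GATAD2B, ZNF662, MTF2, ZNF462, KLF12, ZNF134, ZNF608, TCF23, FOXP1, ZCCHC24, FOSL2, NRBP2, LOC110261292 and LOC110261322. TMM gave 13 of these, without ZNF462 and NRBP2. The small calls for KLF6 (0.24 ± 0.10, adjusted p = 0.0489) and ZSWIM6 (0.26 ± 0.10, adjusted p = 0.0368) did not survive leaving out single libraries: KLF6 was lost without sulforaphane 3 or any FSH library, and ZSWIM6 without sulforaphane 2 or any FSH library. ZSWIM7 was lost without FSH 2.

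**Figure D5:**
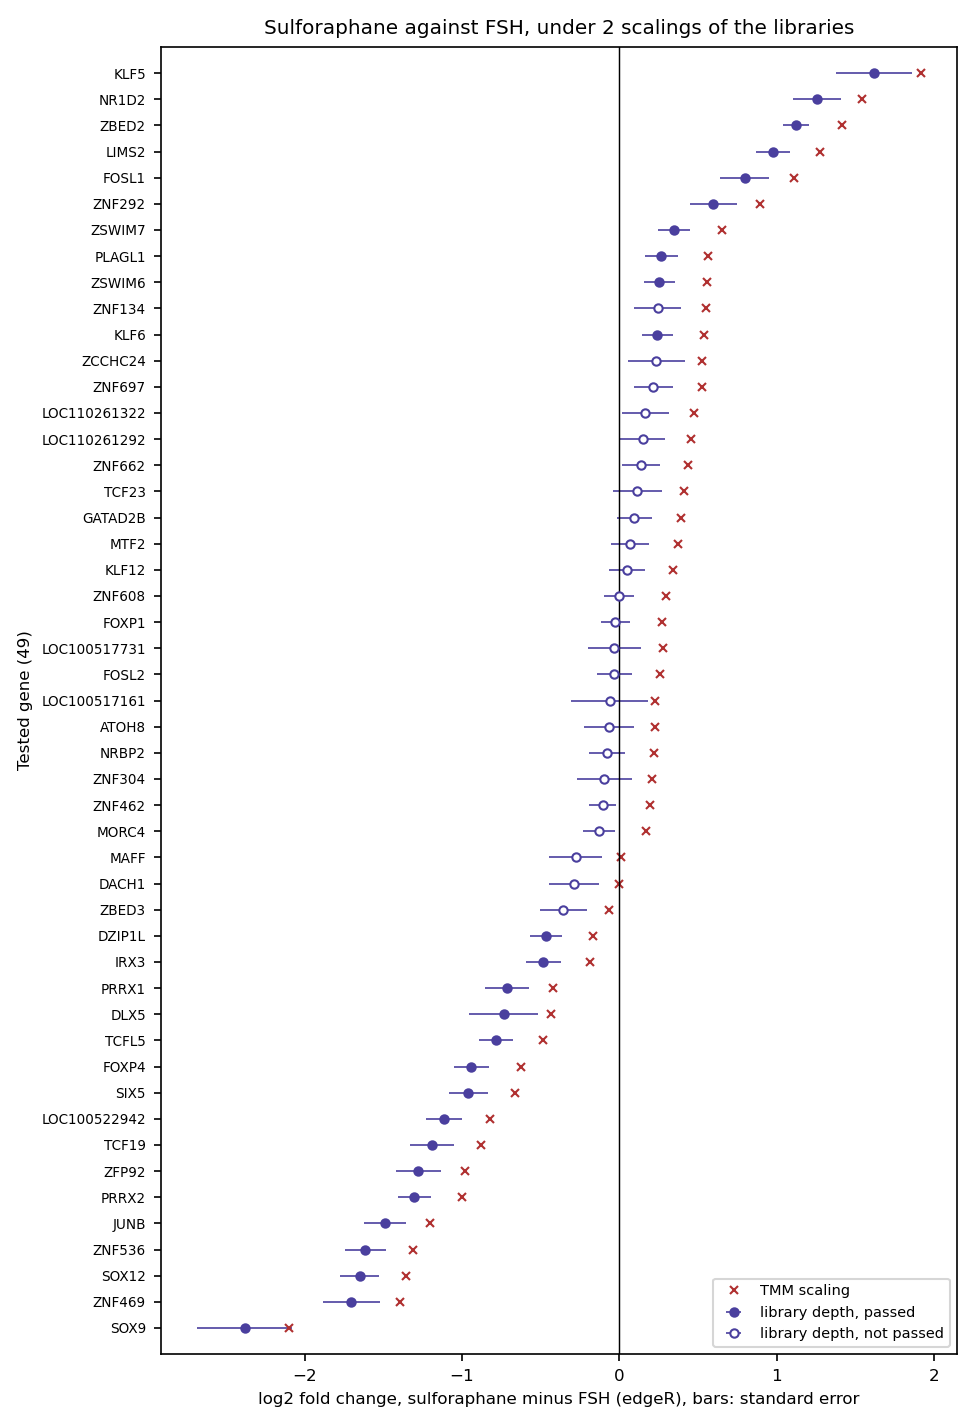
Log2 difference, sulforaphane minus FSH, of 49 tested genes with its standard error, in order of size; filled points passed at an adjusted p under 0.05, and crosses give the value under TMM scaling, which is higher for every gene plotted. SOX9 is lowest at -2.38 and KLF5 highest at 1.62.

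Of 46 textbook factors of granulosa or other ovarian somatic cells, 5 were in the table. SOX9, KLF6, IRX3 and FOSL2 were tested, of which 1 rose and 3 fell with sulforaphane (34.3% and 65.3% of all tested rows) and 2 rose and 2 fell with FSH (55.3% and 42.7%). The fall of KLF6 with sulforaphane is the one that did not pass under either scaling. The fifth, CEBPA, was below the minimum level. A wider list of 178 further regulators of transcription, signalling and the clock was looked up, of which 26 were in the table and 5 of these are among the 59 genes. Of the 18 others that were tested, 5 were higher and 12 lower with sulforaphane than in control, beside 34.3% and 65.3% of all tested rows, and 11 were higher and 7 lower with FSH, beside 55.3% and 42.7%. Their median log2 fold changes were -0.63 and 0.47. Between the treatments 5 were higher and 7 lower with sulforaphane than with FSH, and 6 did not pass, beside 12.9% higher and 42.8% lower of all rows. HDAC9 and PER2, among the 12 and the 7 lower than control, reached the minimum level through control libraries alone. Their direction against control was therefore fixed in advance.

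HDAC9, a class II histone deacetylase, had the deepest fall of that list with both treatments. It reached the minimum level through control libraries alone, so its direction was fixed in advance. Its p-values against control therefore do not count as tests. It averaged 0.57 ± 0.17 FPKM with sulforaphane, 0.58 ± 0.05 FPKM with FSH and 2.92 ± 0.45 FPKM in control (SD, n = 3 each; log2 fold changes of -2.11 and -2.19, adjusted p = 3.71e-07 and 3.24e-07). With sulforaphane, MYOCD (myocardin, the smooth muscle coactivator) averaged 0.71 ± 0.16 against 2.32 ± 0.27 FPKM in control (-1.70, adjusted p = 2.79e-06) and SNAI2 (the repressor SLUG) 3.05 ± 1.97 against 7.66 ± 0.77 FPKM (-1.33, adjusted p = 0.00133). The largest rises with sulforaphane were SMAD9 at 44 ± 6.7 against 21.5 ± 4.3 FPKM (1.04), the dioxin receptor AHR at 4.16 ± 1.40 against 2.23 ± 0.26 FPKM (0.89) and NFATC2 at 3.01 ± 0.16 against 1.65 ± 0.22 FPKM (0.88), with adjusted p of 3.85e-05, 0.000897 and 2.11e-05. With FSH, the falls after HDAC9 were the clock gene PER2 at 0.43 ± 0.03 against 1.36 ± 0.27 FPKM (-1.67, adjusted p = 3.61e-06) and SNAI2 at 3.84 ± 0.54 FPKM (-0.99, adjusted p = 0.00711). PER2 also reached the minimum level through control libraries alone (0.78 ± 0.04 FPKM with sulforaphane), so its p-value does not count as a test. The largest rises with FSH were TSC22D3 (the glucocorticoid-induced factor GILZ) at 22.2 ± 2.3 against 9.70 ± 1.22 FPKM (1.20, adjusted p = 3.76e-06), AHR at 3.75 ± 0.03 FPKM (0.74, adjusted p = 0.00324) and ETV4 at 5.22 ± 0.14 against 3.14 ± 0.76 FPKM (0.73, adjusted p = 0.0286).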

How the data were processed

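The libraries were made from oligo(dT)-enriched RNA without a stated strand-specific step and read on an Illumina sequencer, per the labels' protocols. The submitters' processing notes list, in no order and without roles, StringTie 1.3.1, Bowtie2 2.2.8, edgeR, DESeq2, HISAT2 and fastp, and as genome build Sscrofa11.1. The deposited table gives FPKM and an estimated count per gene and library, per the file headers. The counting tool was not stated. Fractional counts in 143 of 1081 rows show that reads were divided among loci there. The 1053 NCBI gene IDs all matched RefSeq's gene table of the same build, the source of coordinates. There were 0 columns of other series.

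The 59 genes, their roles and the gene lists were chosen with earlier results of these data known. Dividing count by FPKM gave the depth: relative depth from 354 genes, absolute depth from 10 genes at a common maximum within 0.1%, among 346 compared. Counts were rounded and tested with edgeR 4.0.16 (R 4.3.3), glmQLFit and glmQLFTest, in 1 fit of all 9 libraries with these depths as library sizes. Of the 1081 rows, 919 were tested, and p-values were adjusted over them by Benjamini-Hochberg. The biological coefficient of variation was 10.89%. Errors of log2 fold changes are standard errors, and errors of FPKM are SDs of 3 libraries. At this size no exact two-sided permutation test of a gene can go below p = 0.1. Counts were also simulated with 719 of 919 genes unchanged and 1 common spread for all groups. Between sulforaphane and control, 76% of 100 genes at a log2 change of 0.5 and 100% of 100 genes at 1 were called, beside 1% of the 719 unchanged genes. In the real data 99.6% of rows were called and the sulforaphane libraries were more spread, so these shares do not carry over.

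Values per library are given for the 6 largest rises and 6 largest falls per comparison among genes that passed without overlap, and for the granulosa factors; ZNF134, LOC100517161 and ZNF304 in addition were chosen after their values were seen. Alternatives were limma 3.58.1 on log2 FPKM with pseudocounts of 1, 0.1 and 5, DESeq2 1.42.0, median-ratio and TMM scaling, other filters, a 2-fold minimum, fits of only 2 groups, a replicate block and each library left out. The values of 1 homeobox gene, which enters the counts, are not reported here. Promoter motifs and protein sequences are not analysed here.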

Additional observations from a re-analysis of the deposited data

How the results depend on the processing

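Requiring a 2-fold difference left 9, 7 and 12 genes called in sulforaphane against control, FSH against control and sulforaphane against FSH, in place of 50, 50 and 27. Requiring a mean of 5 FPKM left 20 genes to test, of which 20, 20 and 14 passed. The median log2 fold change with sulforaphane against control (0.37) was 0.26 and 0.085 with limma on log2(FPKM + 1) and log2(FPKM + 5), 0.72 and 0.84 under median-ratio and TMM scaling, 0.18 to 0.40 with 1 library left out, and -0.42 over genes of at least 5 FPKM, a subset. With FSH (0.46) it was 0.36 and 0.18 with these limma fits, 0.40 over genes of at least 5 FPKM, 0.63 under TMM scaling and 0.43 to 0.48 with 1 library left out. Between the treatments (-0.05) it was 0.32 and 0.24 under median-ratio and TMM scaling and -0.10 to 0.001 with 1 library left out, the last without sulforaphane 2, so its sign is not settled.

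Under TMM scaling 5 genes changed sign with sulforaphane against control, none of them passing there: KLF6 (0.044), LIMS2 (0.019), FOXP4, LOC100522942 and TCFL5. Between the treatments 13 genes changed sign under median-ratio scaling and 11 under TMM scaling. Among those given per library, ZNF462 passed under median-ratio scaling (0.27) and FOSL2 under both (0.34 and 0.26). With sulforaphane against FSH, leaving out a library gave 23 to 31 calls; without sulforaphane 3 there were 31, with ZNF697, DACH1, MAFF, ZBED3 and FOSL2 gained. The counts against control were 48 to 49 with sulforaphane and 48 to 50 with FSH. Under DESeq2 the calls of 78 of 78 single-gene results were kept.

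Whether the replicate numbers pair the libraries was not settled. Deviations of libraries with the same number correlated at -0.181 to 0.211, with 2 of 9 above 0.1. Those with other numbers correlated at -0.153 to 0.156, with 2 of 18 above 0.1. With 3 libraries per group these values cannot exclude a pairing. With the replicate block the members called were 50, 50 and 25, and ZSWIM6 and PLAGL1 lost their calls between the treatments (adjusted p = 0.0547 and 0.0504). The cause of each change of call was not tested.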
